A study of Mus musculus with 18 samples.

Results

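The genes described here are 10 genes of the interleukin-1 family, the NLRP3 inflammasome and IL-6, out of 36232 genes that the array tables name by a single symbol: Il1a, Il1b, Il1rn, Il1r1, Il18, Il33, Il6, Nlrp3, Casp1 and Pycard. Each was taken by its exact gene symbol, and each symbol belonged to 1 transcript cluster, the set of probes read as a gene on the Mouse Transcriptome Array 1.0. Of the 10 genes, 8 also had a value for every array, while Il18 and Il6 had group averages and standard deviations only.

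RNA of infrarenal aorta was compared between 5 normal aortas, 6 aortas with an aneurysm induced by porcine pancreatic elastase (PPE) and 7 PPE aortas of mice given systemic lenvatinib (PPE + Lenva), an inhibitor of several receptor tyrosine kinases. All mice were male, and the aneurysms were induced at 10 weeks of age. The labels give ApoE–/– mice, a dose of 5 mg/kg in DMSO by daily gavage from day 7 to day 24 and sacrifice on day 28, whereas the methods of the study give wild-type C57BL/6J animals for PPE experiments, so the strain of these arrays is unsettled. The normal aortas came from untreated mice, so that the operation and elastase cannot be told apart, and a vehicle for the PPE mice is not stated for these arrays, so that lenvatinib cannot be told apart from gavage and DMSO. The tissue pieces held all cell types of the wall, and the RNA integrity numbers ran from 5.7 to 9.8.

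IL-1α and IL-1β, the products of Il1a and Il1b, both act through the receptor IL-1R1 (Il1r1), which signals by MyD88 and IRAK kinases to NF-kB, and the receptor antagonist (Il1rn) binds the same receptor without signalling. IL-1β and IL-18 are made as inactive precursors and are cut by caspase-1 (Casp1), which is activated in an inflammasome, a complex of a sensor such as NLRP3 with the adaptor ASC (Pycard). IL-33 is stored in the nuclei of stromal and other barrier cells and is released on injury, and IL-6 (Il6) signals through gp130 and STAT3. Macrophages are a main source of IL-1β, and IL-1 signalling has been studied in aneurysm walls for its part in inflammation and matrix breakdown. Transcript levels show neither cleavage of these precursors nor release of the cytokines.

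Il1rn, Il1a and Il1b lie on chromosome 2 of build mm10, at 24336853-24351494 on the plus strand, 129299609-129309972 on the minus strand and 129364570-129371139 on the minus strand. Casp1 (5298517-5307281) and Il18 (50554857-50581837) lie on chromosome 9, both on the plus strand. Il1r1 lies on chromosome 1 (40225080-40316198, plus strand), Il6 on chromosome 5 (30013161-30019981, plus strand) and Pycard on chromosome 7 (127991373-127993867, minus strand). Nlrp3 lies on chromosome 11 (59541568-59566956, plus strand) and Il33 on chromosome 19 (29925114-29960718, plus strand). These positions are those of the whole cluster, which takes in the exons and introns of its gene.

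Promoters are shown for Il1b and Il1rn, which had the largest differences from normal aorta of the 10 genes. They are also shown for Pycard, with the smallest adjusted p-values of the 10 against normal aorta, and for Il6, which was not called. Whether promoters have a part in the values of these genes was not tested. The sequences are those of RefSeq on build GRCm38.p6, from 250 bases before the gene's first start on its own strand, and end at the base before that start or at the end of a motif that spans it. Capitals mark matches to motifs of NF-kB, AP-1 and C/EBP. The windows are chr2:129371140-129371389 for Il1b (minus strand), chr2:24336610-24336865 for Il1rn (plus strand), chr7:127993868-127994117 for Pycard (minus strand) and chr5:30012864-30013113 for Il6 (plus strand).
Il1b: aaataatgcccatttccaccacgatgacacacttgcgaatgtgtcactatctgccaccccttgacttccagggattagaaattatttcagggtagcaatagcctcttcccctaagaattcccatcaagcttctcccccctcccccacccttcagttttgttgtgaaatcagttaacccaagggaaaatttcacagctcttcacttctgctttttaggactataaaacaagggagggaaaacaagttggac
Il1rn: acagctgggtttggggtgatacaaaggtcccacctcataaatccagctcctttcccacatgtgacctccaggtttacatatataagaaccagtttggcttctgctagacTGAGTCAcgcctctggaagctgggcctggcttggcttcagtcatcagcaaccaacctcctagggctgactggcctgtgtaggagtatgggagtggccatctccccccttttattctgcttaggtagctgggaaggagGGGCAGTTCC
Pycard: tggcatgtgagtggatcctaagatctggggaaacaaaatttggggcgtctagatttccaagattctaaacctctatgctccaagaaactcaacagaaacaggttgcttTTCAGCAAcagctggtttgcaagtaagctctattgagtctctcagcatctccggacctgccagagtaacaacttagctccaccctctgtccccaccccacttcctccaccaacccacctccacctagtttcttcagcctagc
Il6: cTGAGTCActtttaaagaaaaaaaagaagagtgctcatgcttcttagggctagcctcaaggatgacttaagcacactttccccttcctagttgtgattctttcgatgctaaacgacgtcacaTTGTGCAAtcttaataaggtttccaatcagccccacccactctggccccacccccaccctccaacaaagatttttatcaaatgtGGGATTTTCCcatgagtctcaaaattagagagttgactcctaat

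The motifs of 4 factors were searched on both strands in windows from 250 bases before to 50 bases after each start, of which the 10 genes had 15 and all 27025 genes 32851. The NF-kB motif, GGG and TTCC with 3 bases between them, was found for 3 genes, Il1rn, Il1r1 and Il6, in 5 windows, against 6.31% of all genes and 5.56% of all windows. All 3 windows of Il1rn are among these, and the matched letters were the same in its windows 2 and 3, so 1 site may be counted in both. The AP-1 motif, TGANTCA, was found for Il1a, Il1rn and Il6, in 3 windows, against 8.97% of all genes and 7.81% of all windows. The C/EBP motif, TTGC and AA with 2 bases between them, was found for Il1r1, Il33, Il6 and Pycard, in 4 windows, against 12.2% of all genes and 10.8% of all windows. The STAT motif, TTC and GAA with 3 bases between them, was found for 0 of the 10 genes, against 9.55% of all genes and 8.3% of all windows. In the Il6 window the matches began 249 (AP-1), 128 (C/EBP) and 44 (NF-kB) bases before the start, in that of Il1rn 141 (AP-1) and 4 (NF-kB) bases before it, and no matches overlapped. The windows of Il1b, Casp1, Il18 and Nlrp3 held no match to these motifs, which says only that these letters are not in these windows.

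The values are log2 signals, in which a difference of 1 is a 2-fold difference, and each probe set has its own brightness, so that levels are compared between aortas and not between genes. Array medians over the 11121 clusters with per-array values lay between 5.45 and 5.66. The clusters with per-array values differed between groups far more often than others: 78.9% had an overall F test p under 0.05, against 4.93% of the rest, and how they were selected for deposit is not given in the sources used here. Shares among all clusters are therefore a low background for the 8 genes with per-array values, and the share among the clusters with per-array values is given beside them. In bulk tissue, fewer cells of a type and less RNA per cell cannot be told apart.

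**Figure D1:**
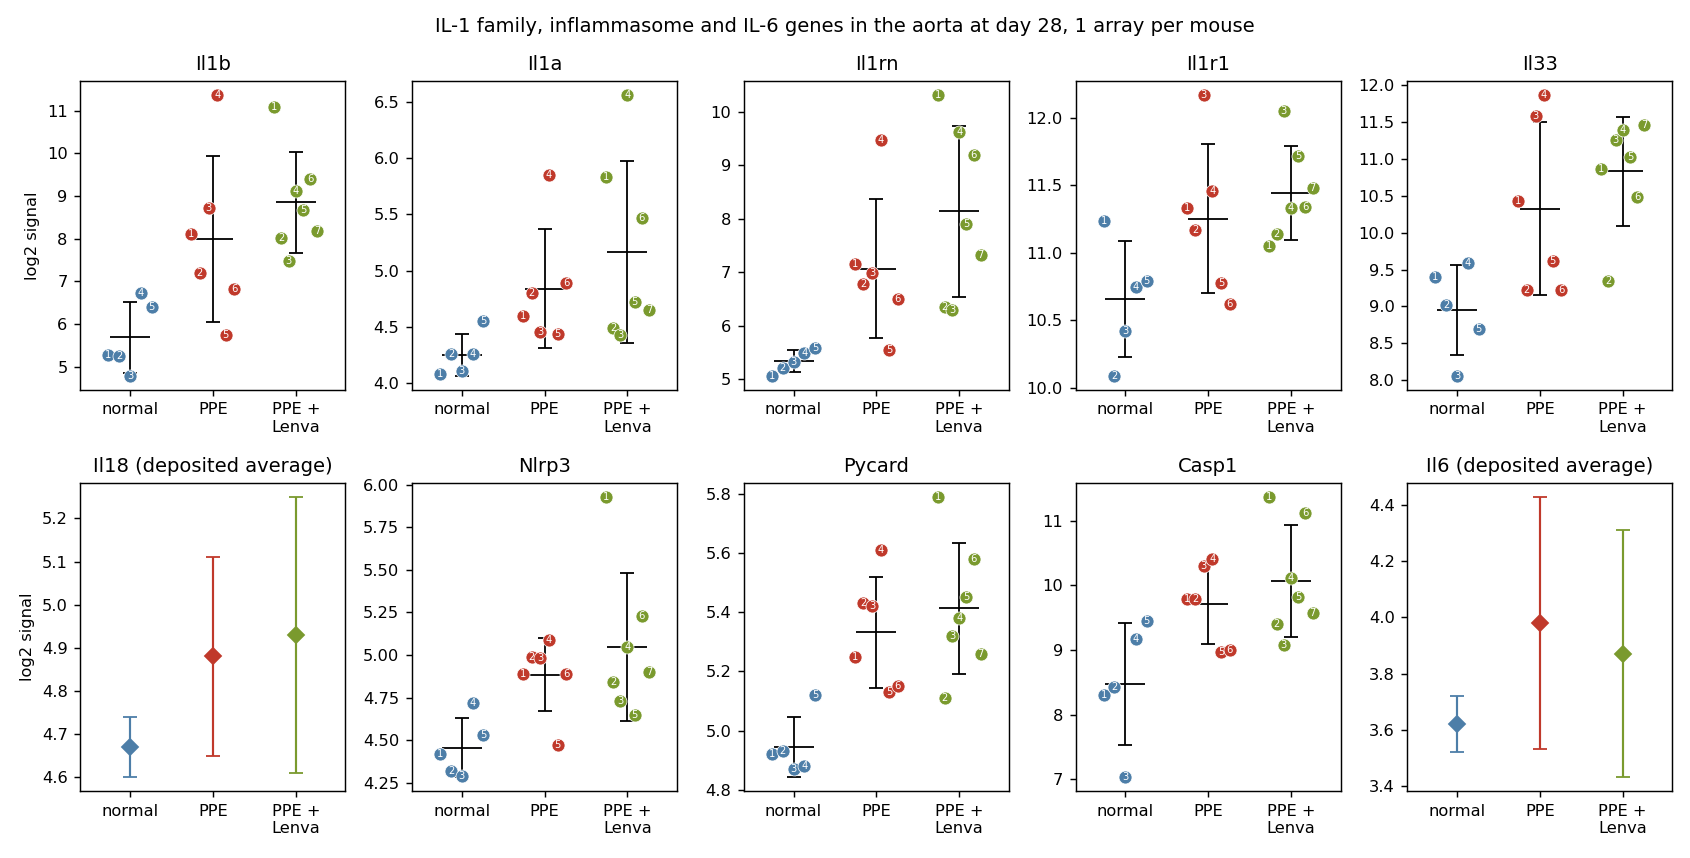
Log2 signal of the 10 genes in normal aorta, PPE and PPE + Lenva; each numbered point is 1 mouse, lines are the mean and SD of the group, and Il18 and Il6 show the deposited average and SD. Axes differ between genes and do not start at 0. For Il1b and Il1rn all 7 PPE + Lenva points lie above all 5 normal points, and for Pycard all 6 PPE points do, while points of PPE and PPE + Lenva overlap for every gene plotted by array.

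Of the ligands, Il1b showed the widest range. In normal aorta its log2 signals were 5.27, 5.24, 4.79, 6.72 and 6.41 in replicates 1 to 5, with a mean of 5.69 ± 0.83 (SD, n = 5). In PPE they ran from 5.75 through a median of 7.65 to 11.37, with a mean of 8.0 ± 1.95 (SD, n = 6). In PPE + Lenva they ran from 7.49 through a median of 8.67 to 11.10, with a mean of 8.85 ± 1.19 (SD, n = 7). Of the 6 PPE aortas 5 lay above the highest normal aorta, and the one within the normal range was replicate 5. The difference of PPE and normal aorta was 2.31 (SE 0.81, 4.96-fold), with an adjusted p of 0.120 (limma, Benjamini-Hochberg over all 65956 clusters), and was not called. All 7 PPE + Lenva aortas lay above all normal aortas, and Il1b rose by 3.17 (SE 0.79, 8.97-fold, adjusted p = 0.0261 by limma).

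Il1a, the second agonist of the same receptor, lay below the array medians in every normal aorta. Its values in normal aorta were 4.08, 4.26, 4.11, 4.26 and 4.55. They ran from 4.44 through 4.70 to 5.85 in PPE and from 4.43 through 4.72 to 6.56 in PPE + Lenva. The groups overlapped, and the highest values were those of replicate 4 of PPE and of replicates 4, 1 and 6 of PPE + Lenva. The differences from normal aorta were 0.59 (SE 0.35) in PPE and 0.91 (SE 0.34) in PPE + Lenva, and neither was called (adjusted p = 0.406 and 0.119 by limma).

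Il33, an alarmin of the family, lay above the highest normal aorta in 4 of 6 PPE aortas and in 6 of 7 PPE + Lenva aortas. The normal values were 9.40, 9.02, 8.06, 9.59 and 8.70, with a mean of 8.95 ± 0.61 (SD, n = 5). PPE values ran from 9.22 through 10.03 to 11.87, and PPE + Lenva values from 9.34 through 11.03 to 11.46. PPE replicates 3 and 4 stood at 11.59 and 11.87, the other 4 at or below 10.43, whereas in PPE + Lenva only replicate 2 lay inside the normal range. Il33 rose by 1.88 (SE 0.49, 3.68-fold, adjusted p = 0.0324 by limma) in PPE + Lenva against normal aorta, and its difference of PPE and normal aorta, 1.37 (SE 0.51), was not called (adjusted p = 0.135). Il18, which caspase-1 cuts as it does IL-1β, had deposited averages of 4.67 (SD 0.07) in normal aorta, 4.88 (SD 0.23) in PPE and 4.93 (SD 0.32) in PPE + Lenva, and none of its differences was called (0.21, 0.05 and 0.26 in the 3 comparisons, the smallest adjusted p being 0.324 by limma).

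The receptor antagonist Il1rn was uniform in normal aorta, with values of 5.06, 5.21, 5.32, 5.48 and 5.58. In PPE it ran from 5.54 through 6.88 to 9.48, and in PPE + Lenva from 6.29 through 7.90 to 10.32. Its SD was 0.21 in normal aorta, 1.31 in PPE and 1.61 in PPE + Lenva, so that most of the spread lay among the operated mice. The difference of PPE and normal aorta was 1.74 (SE 0.73, 3.34-fold) and was not called (adjusted p = 0.195 by limma). In PPE + Lenva all 7 values exceeded all normal values, and Il1rn rose by 2.81 (SE 0.71, 7.03-fold, adjusted p = 0.0271 by limma).

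The receptor Il1r1 overlapped between all groups. Its normal values were 11.24, 10.09, 10.42, 10.75 and 10.79, the PPE values ran from 10.62 through 11.25 to 12.17, and the PPE + Lenva values from 11.05 through 11.34 to 12.05. The differences from normal aorta were 0.60 (SE 0.26) in PPE and 0.79 (SE 0.25) in PPE + Lenva, and neither was called (adjusted p = 0.208 and 0.0717 by limma). Normal replicate 1 overlapped with both other groups, and without it the second difference was 0.93 with an adjusted p of 0.0488. After quantile normalization the differences of Il1r1 were 0.20 in PPE and 0.43 in PPE + Lenva (adjusted p = 0.716 and 0.291 by limma).

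Of the inflammasome genes, Pycard had the most regular pattern, at a small size. Its values in normal aorta were 4.92, 4.93, 4.87, 4.88 and 5.12. They ran from 5.13 through 5.34 to 5.61 in PPE and from 5.11 through 5.38 to 5.79 in PPE + Lenva. All 6 PPE values lay above all 5 normal values, by a margin of 0.01 at the closest, and 6 of 7 PPE + Lenva values did. Pycard rose by 0.47 (SE 0.11, 1.38-fold, adjusted p = 0.0155 by limma) in PPE + Lenva, while its difference of 0.39 (SE 0.11) in PPE just missed the threshold (adjusted p = 0.0555).

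Casp1, the protease, had normal values of 8.31, 8.43, 7.03, 9.17 and 9.45. They ran from 8.97 through 9.79 to 10.40 in PPE and from 9.07 through 9.82 to 11.37 in PPE + Lenva. Normal replicates 4 and 5 reached into both other groups, and PPE replicates 5 and 6 stood at 8.97 and 9.0, within the normal range. Casp1 rose by 1.59 (SE 0.45, 3.01-fold, adjusted p = 0.0471 by limma) in PPE + Lenva against normal aorta. The call was lost with arrays of these 2 groups only (adjusted p = 0.0922), with the deposited averages (1.30, adjusted p = 0.107) and without normal replicate 3 (1.23, adjusted p = 0.133). Its difference of PPE and normal aorta was 1.23 (SE 0.47, adjusted p = 0.147) with all arrays.

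Nlrp3, the sensor, had normal values of 4.42, 4.32, 4.29, 4.72 and 4.53. It ran from 4.47 through 4.94 to 5.09 in PPE and from 4.65 through 4.90 to 5.93 in PPE + Lenva. Of the PPE values 5 of 6 lay above all normal values, and of the PPE + Lenva values 6 of 7. The differences from normal aorta were 0.43 (SE 0.18) and 0.59 (SE 0.18), neither of them called (adjusted p = 0.202 and 0.0574 by limma). The second was called after quantile normalization (0.64, adjusted p = 0.0334) or median-centring (0.58, adjusted p = 0.0483). The highest single value, 5.93, was that of PPE + Lenva replicate 1, without which the second difference was 0.44.

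Il6 had deposited averages below the array medians in all groups, 3.62 (SD 0.10) in normal aorta, 3.98 (SD 0.45) in PPE and 3.87 (SD 0.44) in PPE + Lenva. Its differences were 0.36 in PPE against normal aorta, -0.11 in PPE + Lenva against PPE and 0.25 in PPE + Lenva against normal aorta. None was called (adjusted p = 0.430, 1 and 0.616 by limma), and the SD in the operated groups exceeded each difference. For Il6 and Il18 the deposited averages are not plain means, which the test takes them to be.

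**Figure D2:**
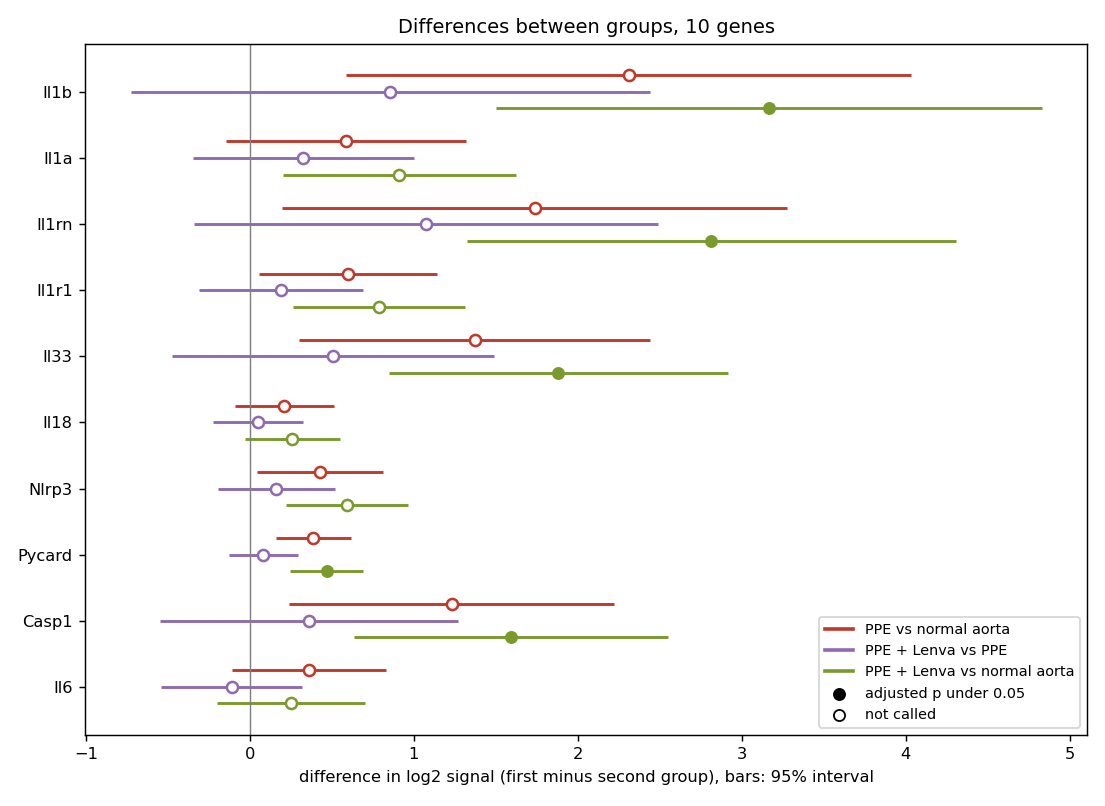
Difference in log2 signal for the 10 genes in the 3 comparisons, with 95% intervals; filled points have an adjusted p under 0.05. The filled points are Il1b, Il1rn, Il33, Pycard and Casp1 in PPE + Lenva against normal aorta, and every interval of PPE + Lenva against PPE includes 0.

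In PPE against normal aorta, which shows the aneurysm without lenvatinib, the differences of the 10 genes were all above 0, with a median of 0.59 against -0.02 over all clusters. None was called higher at an adjusted p under 0.05, where 1.35% of all clusters were, and 7 were higher at an unadjusted p under 0.05, where 7.58% of all clusters were. These 7 were Il1b, Il1rn, Il1r1, Il33, Nlrp3, Casp1 and Pycard, and all are among the 8 genes with per-array values. Among the clusters with per-array values, 7.89% were called higher and 33.7% were higher at an unadjusted p under 0.05. Of the 8 such genes, Pycard had every PPE value above every normal value, as had 6.68% of all clusters with per-array values. Pycard was called when normal replicate 5 or PPE replicate 5 was left out, with an adjusted p of 0.0364 at the lowest. Without PPE replicate 4, the differences were 1.63 for Il1b, 1.26 for Il1rn, 1.06 for Il33 and 0.38 for Il1a.

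In PPE + Lenva against PPE, in which lenvatinib cannot be told apart from gavage and DMSO, 9 of the 10 differences were above 0 and that of Il6 was below it. Their median was 0.26 against 0.01 over all clusters. No gene of the 10 was called and none had an unadjusted p under 0.05. Over all clusters 0% were called by limma, with a smallest adjusted p of 0.156, and 5.97% had an unadjusted p under 0.05. No gene separated the groups, as 0.656% of the clusters with per-array values did. The differences were 1.08 for Il1rn (95% interval -0.34 to 2.49), 0.86 for Il1b (-0.72 to 2.44), 0.51 for Il33 (-0.48 to 1.49) and 0.36 for Casp1 (-0.55 to 1.27). The intervals thus include both a lower level with treatment and, for Il1b and Il1rn, a level more than 4-fold higher. They were narrowest for Pycard (-0.13 to 0.29), Il18 (-0.23 to 0.33) and Nlrp3 (-0.19 to 0.52).

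In PPE + Lenva against normal aorta, a comparison that shares its normal arrays with the first and its treated arrays with the second, all 10 differences were above 0, with a median of 0.85 against -0.01 over all clusters. Il1b, Il1rn, Il33, Casp1 and Pycard were called higher, 5 of 10 genes, where 2.72% of all clusters were, and 8 were higher at an unadjusted p under 0.05, where 8.61% were (the others being Il1a, Il1r1 and Nlrp3). All 8 have per-array values, and among the clusters with such values 15.8% were called higher and 38.1% were higher at an unadjusted p under 0.05. Il1b and Il1rn had every treated value above every normal value, as had 8.63% of the clusters with per-array values. The count of 5 fell to 1 when normal replicate 2 or 3 or PPE + Lenva replicate 1 or 6 was left out, to 2 without PPE + Lenva replicate 4 and to 3 without normal replicate 1 or PPE + Lenva replicate 7. Pycard was called in each of the 12 fits without an array (highest adjusted p = 0.0463), while the highest adjusted p was 0.0749 for Il1b, 0.0627 for Il1rn, 0.0955 for Il33 and 0.133 for Casp1. Whether the 2 aneurysm groups differ in their distance from normal aorta is the comparison of PPE + Lenva with PPE above, in which no gene was called.

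**Figure D3:**
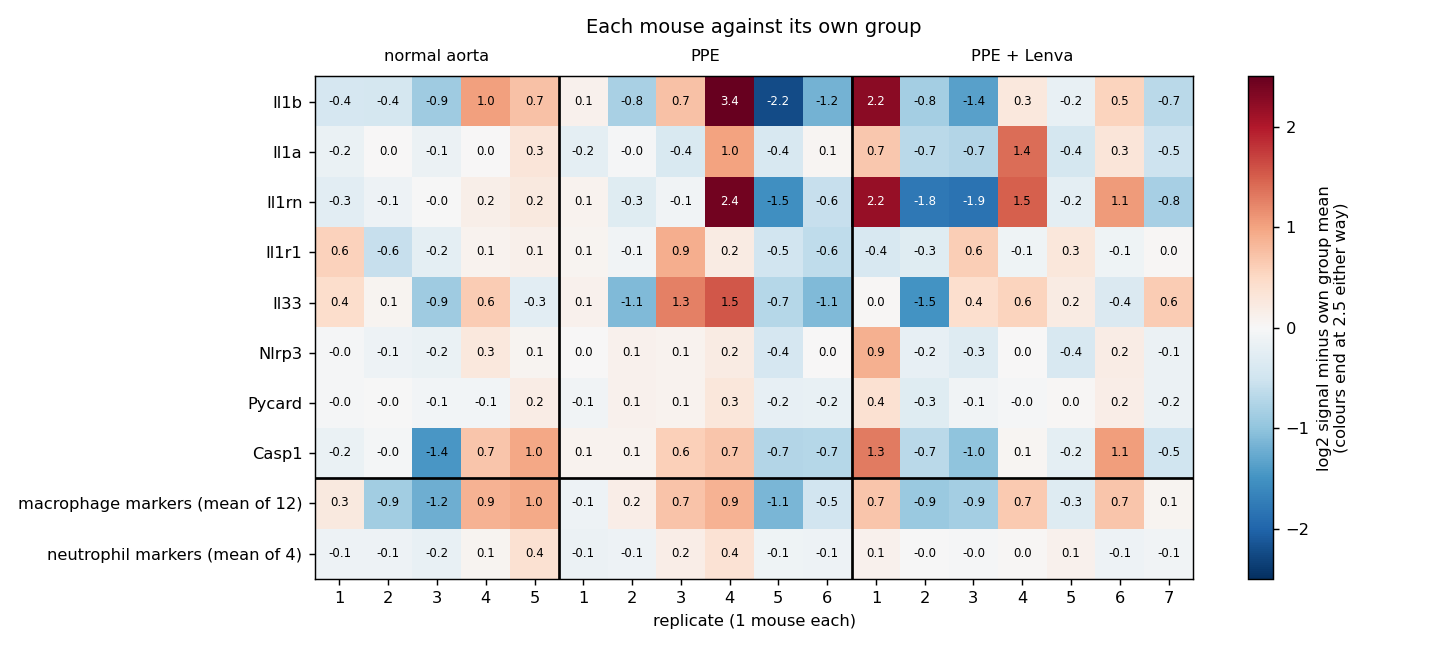
Log2 signal of each mouse minus the mean of its own group, for the 8 genes with per-array values and for the means of 12 macrophage and 4 neutrophil markers; columns are mice, red is above the group's mean, and colours end at 2.5 either way. PPE replicate 4 is red for all 8 genes and PPE replicate 5 blue, and PPE + Lenva replicate 1 is the reddest treated mouse for Il1b, Il1rn, Nlrp3, Pycard and Casp1.

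Within groups, the same mice were high in most of these genes. PPE replicate 4 had the highest value of its group in 7 of 8 genes and was second in Il1r1, and PPE replicate 5 had the lowest in 6. PPE + Lenva replicate 1 had the highest value in 5 genes, Il1b, Il1rn, Nlrp3, Casp1 and Pycard, but the lowest in Il1r1. PPE + Lenva replicate 3 had the lowest value in Il1a, Il1b, Il1rn and Casp1, but the highest in Il1r1. In normal aorta, replicate 5 was among the upper 2 in 7 genes and replicate 3 was lowest in 5. These ranks are a description, and no test was made of them.

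Macrophage markers were high in the mice in which most of these genes were high. All 12 of the list had per-array values, and their mean log2 signal ran from 8.20 to 10.38 in normal aorta, from 10.43 to 12.43 in PPE and from 10.81 to 12.42 in PPE + Lenva, without overlap of normal aorta and the other groups. The log2 of their summed signal ran from 14.56 to 18.98, from 18.79 to 19.52 and from 18.89 to 19.70. Within groups, the mean was highest in normal replicate 5, PPE replicate 4 and PPE + Lenva replicate 1, and lowest in normal replicate 3, PPE replicate 5 and PPE + Lenva replicate 2. Of the 12 markers 8 were called higher in PPE against normal aorta (4 at the fewest when an array was left out) and 11 in PPE + Lenva against normal aorta (7 at the fewest), with Cd68, a lysosomal protein of macrophages, higher by 3.43 and 3.45. Mertk had differences of -0.54 and -0.38, not called. Among all clusters with per-array values, 7.89% were called higher in PPE and 15.8% in PPE + Lenva against normal aorta. The mean of the 4 neutrophil markers with per-array values was also highest in normal replicate 5, PPE replicate 4 and PPE + Lenva replicate 1. Those of the 6 T cell and 2 B cell markers were highest in normal replicate 5, PPE replicate 4 and PPE + Lenva replicate 6. That of the 5 mast cell markers was highest in normal replicate 1, PPE replicate 5 and PPE + Lenva replicate 6. Il1r1 was lowest in PPE + Lenva replicate 1. The part of macrophage numbers in the values of Il1b, Il1rn and Casp1 was not tested.

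Of 10 neutrophil markers 4 had per-array values, and the log2 of their summed signal ran from 6.92 to 7.57 in normal aorta, from 7.17 to 8.12 in PPE and from 7.42 to 7.85 in PPE + Lenva. None was called higher in any comparison, and Ngp, a granule protein, was lower in both comparisons with normal aorta (-0.37 and -0.35). Its averages of 3.79 in normal aorta, 3.49 in PPE and 3.53 in PPE + Lenva lay near the low end of the scale. Leaving out an array gave 0 to 1 markers called lower and 0 to 1 called higher in each of these comparisons. The averages of Elane, Mpo and Camp, made in immature neutrophils, lay between 3.60 and 3.77 in all groups. Csf3r, the receptor of the neutrophil growth factor G-CSF, differed from normal aorta by 0.81 in PPE and 0.83 in PPE + Lenva (adjusted p = 0.0781 and 0.0514 by limma), and Retnlg by 0.75 and 1.08, none of them called. S100a8 and S100a9, abundant calcium-binding proteins of neutrophils, differed by 0.81 and 0.53 in PPE + Lenva against PPE, not called (adjusted p = 0.834 and 0.751). The contractile smooth muscle markers were present in every group, with Acta2 at the ceiling of the scale throughout, and Myh11 fell by 3.12 in PPE against normal aorta, 1 of 4 called lower among 8 markers (2 to 7 when an array was left out). In PPE + Lenva against normal aorta 1 of the 8 was called lower, Synpo2 at -1.85 (0 to 4 when an array was left out). Myh11 differed there by -1.76, not called (adjusted p = 0.073 by limma). Of 8 endothelial markers 3 were called lower in PPE and 4 in PPE + Lenva, among them Vwf, at -2.18 and -2.08, and leaving out an array gave 2 to 3 and 2 to 5 calls. Over all genes, 2.13% were called lower in PPE and 2.79% in PPE + Lenva against normal aorta, a low background for markers with per-array values. Of 7 T cell markers 1 and 5 were called higher in the same comparisons, with a range of 1 to 6 and of 0 (without normal replicate 2) to 5 when an array was left out. Among all clusters with per-array values, 7.89% and 15.8% were called higher there. The part of these cell types in the values of the 10 genes was not tested.

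**Figure D4:**
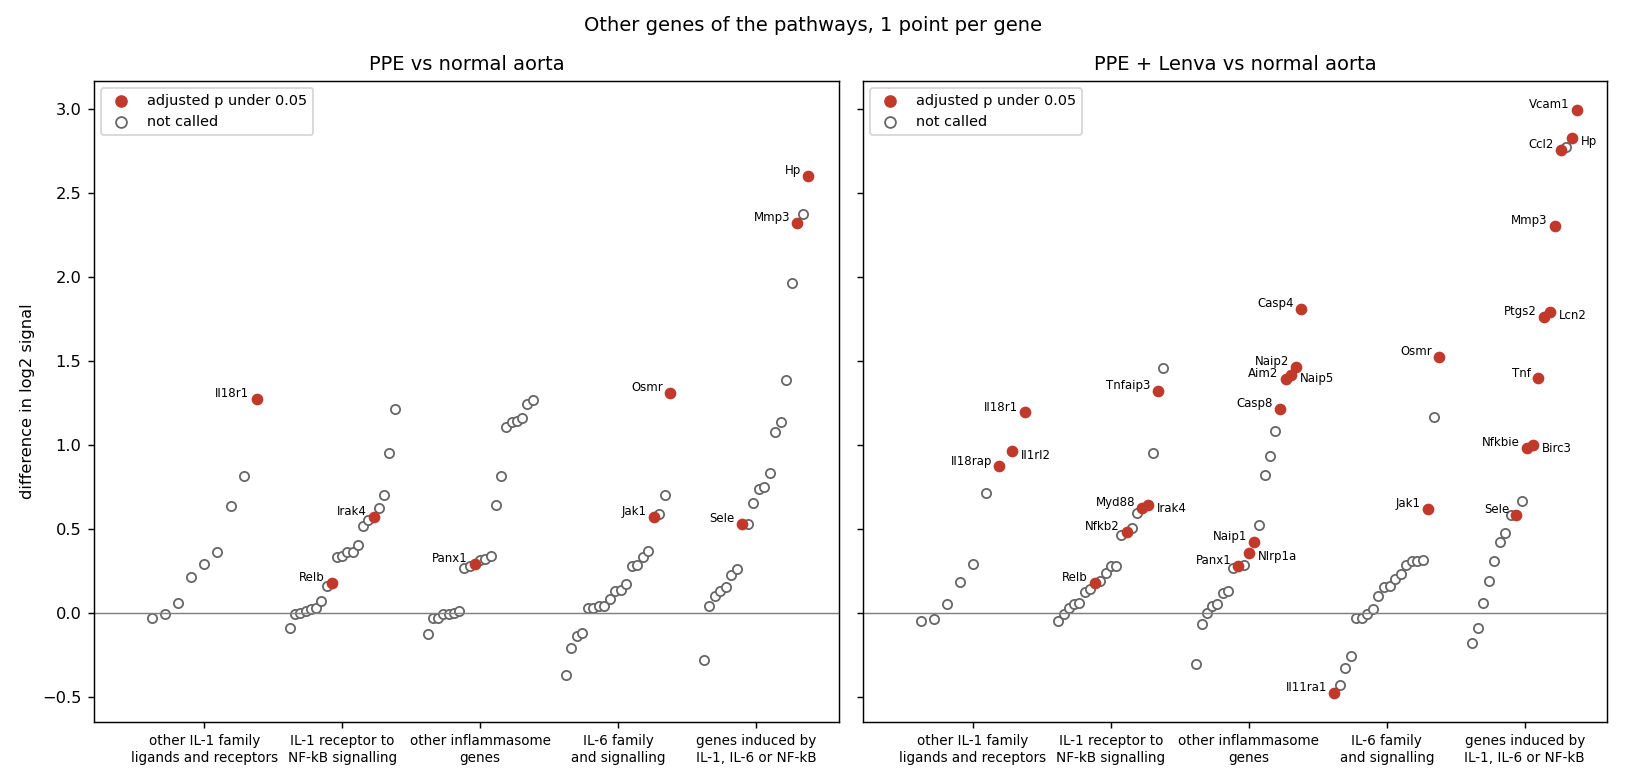
Difference in log2 signal of the measured genes of 5 pathway lists, 1 point per gene in rising order within its list, in PPE (left) and PPE + Lenva (right) against normal aorta; filled points have an adjusted p under 0.05 and are named. The largest called differences are Hp (2.6) on the left and Vcam1 (2.99) on the right, both among the genes induced by IL-1, IL-6 or NF-kB.

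Among other ligands, receptors and decoys of the IL-1 family, 9 of 13 genes were measured. Il18r1, the ligand-binding chain of the IL-18 receptor, rose by 1.27 in PPE and 1.19 in PPE + Lenva against normal aorta (adjusted p = 0.0211 and 0.0199 by limma). It was the only called gene of 9 in PPE, whereas 2.06% of all genes were called higher and 2.13% lower. In PPE + Lenva against normal aorta Il1rl2, the receptor of the IL-36 cytokines, and Il18rap, the second chain of the IL-18 receptor, rose too (0.96 and 0.87), so that 3 of 9 were called, where 4.16% of all genes were called higher and 2.79% lower. The decoy receptor Il1r2 differed by 0.29 and 0.71 and the IL-33 receptor Il1rl1 by 0.21 and 0.18, none of them called. The list median was 0.29 in both comparisons. All called genes were among the 4 with per-array values. Of all clusters with such values, 7.89% were called higher in PPE and 15.8% in PPE + Lenva against normal aorta.

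Of 21 measured genes of signalling from IL-1 receptors to NF-kB, 2 were called higher in PPE against normal aorta: Irak4, a kinase that binds MyD88, at 0.57, and Relb, an NF-kB subunit, at 0.18. In PPE + Lenva against normal aorta 5 were called higher: Tnfaip3, an inhibitor of NF-kB that NF-kB induces, at 1.32, Irak4 at 0.64, the adaptor Myd88 at 0.62, Nfkb2 at 0.48 and Relb at 0.18. Traf6, Map3k7 and Chuk, core steps of the pathway, differed by no more than 0.06 in either comparison. No gene of the list was called lower, and the list medians were 0.34 and 0.28. The called genes were among the 12 of the list with per-array values. Of all clusters with such values, 7.89% and 15.8% were called higher in these comparisons.

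Of 21 other inflammasome genes measured, Panx1, a channel for ATP release, was called higher in PPE against normal aorta, at 0.29, and 8 were called in PPE + Lenva against normal aorta. These included Casp4, the protease of the non-canonical inflammasome, at 1.81, the sensor Aim2 at 1.39, Casp8 at 1.21 and Panx1 at 0.28. Naip2, Naip5 and Naip1, sensors of bacterial proteins, rose by 1.46, 1.42 and 0.42, but their near-identical copies may share probes, so each is uncertain. Gsdmd, whose product forms the pore through which IL-1β leaves the cell, differed by 0.82 and 0.93 and the ATP receptor P2rx7 by 1.27 and 1.08, none of them called. Nek7, a partner of NLRP3, differed by -0.03 and -0.07. The called genes were among the 15 of the list with per-array values. Of all clusters with such values, 7.89% were called higher in PPE and 15.8% in PPE + Lenva against normal aorta. The 8 calls fell to 1 without normal replicate 1, 2 or 3 or PPE + Lenva replicate 1, 4 or 6.

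Of 20 measured genes of the IL-6 family and its signalling, Osmr, the oncostatin M receptor, rose by 1.31 in PPE and 1.52 in PPE + Lenva against normal aorta (adjusted p = 0.021 and 0.00614 by limma). The kinase Jak1 rose by 0.57 and 0.62. Il11ra1, the IL-11 receptor, fell by 0.48 in PPE + Lenva against normal aorta (adjusted p = 0.0106), and its difference in PPE was -0.37, not called. The receptor genes Il6ra and Il6st (gp130), Stat3 and the feedback inhibitor Socs3 were not called in either comparison, with differences of 0.59, -0.14, 0.37 and 0.28 in PPE. The list medians were 0.13 and 0.16. The called genes were among the 11 of the list with per-array values. Of all clusters with such values, 7.89% were called higher in PPE and 15.8% in PPE + Lenva against normal aorta.

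Of 20 genes induced by IL-1, IL-6 or NF-kB, 3 were called higher in PPE against normal aorta: Hp (haptoglobin) at 2.6, the protease Mmp3 (stromelysin) at 2.32 and the endothelial adhesion molecule Sele at 0.53. Against normal aorta, 10 were in PPE + Lenva, with Vcam1, an adhesion molecule, at 2.99, Hp at 2.83 and the monocyte chemokine Ccl2 at 2.76 among them. Mmp3 at 2.30, Lcn2 (lipocalin) at 1.79, Ptgs2 (cyclooxygenase) at 1.76 and Tnf at 1.4 were also among these 10. Cxcl1, Nos2 and Mmp9, which are also induced by these cytokines, differed by 0.26, 0.10 and 0.04 in PPE, not called. The list medians were 0.69 and 0.82, against -0.01 over all genes. The called genes were among the 13 of the list with per-array values. Of all clusters with such values, 7.89% were called higher in PPE and 15.8% in PPE + Lenva against normal aorta. Between PPE + Lenva and PPE, 0 genes of the 5 lists were called by limma, and 0, 0, 1, 2 and 3 genes in the order given had an unadjusted p under 0.05. Ccl2 had the largest difference (1.38, adjusted p = 0.752 by limma).

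Leaving out an array moved the list counts: against normal aorta, the genes called higher in the 5 lists ranged in PPE from 0 to 3, 0 to 6, 0 to 6, 0 to 2 and 1 to 7 in the order given, and in PPE + Lenva from 0 to 3, 3 to 8, 1 to 11, 1 to 2 and 7 to 11. Of the measured genes of these lists 4, 12, 15, 11 and 13 had per-array values. In each list the fewest were called without normal replicate 2 or 3, in some lists without other arrays too. These 2 arrays held the lowest macrophage marker means of all arrays, and without either of them fewer clusters of the whole array were called too. The part of macrophage numbers in the list counts was not tested.

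By the smallest root mean square difference of centred log2 values over all 18 arrays, among 6873 other genes with per-array values, the genes most like Il1b were Ms4a6d (0.53), Fcgr4 (0.58) and Ms4a6b (0.59). Those most like Il1rn were Irg1 (0.47), Ifit1bl1 (0.56) and Mx1 (0.58). Ms4a6d had means of 8.19, 10.54 and 11.16 and Irg1 of 4.13, 5.36 and 6.48 in normal aorta, PPE and PPE + Lenva. These genes were chosen for their likeness, and no test was made of it.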

How the data were processed

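RNA of 18 aortas was hybridised to Mouse Transcriptome Array 1.0 chips. The authors computed log2 signals by SST-RMA and deposited them for 11121 transcript clusters; the submitters' processing notes name Transcriptome Analysis Console 4.0.1.36 and build mm10. Their 3 deposited comparison tables hold, for 65956 clusters, group averages and standard deviations on the same log2 scale, with decimal commas. The tables also hold fold changes, p-values and adjusted p-values of the authors' own comparisons, which were not used. In PPE, 99.7% of the deposited averages matched a 1-step Tukey biweight within 0.01. Groups were taken from the sample labels. Replicates are separate aortas. No 2 arrays correlated above 0.991. The number of arrays limits the precision.

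Differences were tested with limma 3.58.1 in R 4.3.3 over all 18 arrays. Clusters with per-array values were fitted by array, others from deposited averages and standard deviations. The variance prior (1.72 degrees of freedom) was taken from all deposited standard deviations. Benjamini-Hochberg adjustment ran over all 65956 clusters, with calls under 0.05. The procedure was tested on simulated data, in which unadjusted p-values ran low. Of the simulated clusters without a difference, 8.23% in PPE against normal aorta had an unadjusted p under 0.05. The shares were 7.73% in PPE + Lenva against PPE and 8.54% in PPE + Lenva against normal aorta. The 10 genes, the lists (167 of 176 genes measured, Gsdme under an older symbol) and the tests were chosen with earlier results of these data known. Named list genes are those called, at most 5 per list, by size of difference in PPE against normal aorta; others were named after their values were seen. Promoters were matched by symbol (10 of 10 genes). Alternatives covered scaling, variance model, filters, thresholds, the replicate number as a block and fits without each array in turn. Same-numbered arrays did not deviate together (correlations from -0.575 to 0.492), so numbers were not taken as pairs.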

Additional observations from a re-analysis of the deposited data

Results flagged for a closer look

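In 3 cases a value stood apart from the rest of its group, among 24 sets of arrays tested (8 genes in 3 groups) at a level that chance passes in about 1 of 20. Il1a in PPE replicate 4 was 5.85, next to 4.89 in the nearest mouse, and the gap took 0.681 of the group's range. Nlrp3 in PPE replicate 5 was 4.47, next to 4.89, with a gap of 0.677 of the range. Pycard in normal replicate 5 was 5.12, next to 4.93, with a gap of 0.760 of the range. Without these arrays the differences of PPE and normal aorta were 0.38 for Il1a, 0.51 for Nlrp3 and 0.43 for Pycard.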

How the results depend on the processing

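The counts of genes called among the 10 are 0 in PPE against normal aorta, 0 in PPE + Lenva against PPE and 5 in PPE + Lenva against normal aorta. In PPE against normal aorta the count became 1, Pycard, at an adjusted p under 0.1, with quantile normalization, median-centring, arrays of the 2 groups only, array weights, deposited averages for all clusters and without dim clusters. It became 7 with prior and adjustment within the per-array table, where the count against normal aorta in PPE + Lenva became 8, a table whose clusters differ more often than the rest. The count in PPE + Lenva against normal aorta was 6 with quantile normalization or median-centring, which added Nlrp3, 6 without dim clusters, which added Il1r1, and 4 with arrays of the 2 groups only or with deposited averages, which lost Casp1. Il1a there was 0.91 and became 0.49 with deposited averages, not called in either. Leaving out each array gave 0 to 1, 0 and 1 to 6 genes. Clusters called went from 2610 to between 1366 and 3507 in PPE, by over 1.5 times without normal replicate 2 (1575) or 3 (1366) or PPE replicate 2 (1700) or 4 (1372), and from 3992 to between 1990 and 4314 in PPE + Lenva, by over 1.5 times without normal replicate 2 (2210) or 3 (1990) or PPE + Lenva replicate 1 (2480), 4 (2644) or 6 (2424). Il18, Il6 and other clusters without per-array values kept all arrays in these fits.

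With the replicate number as a block, the 5 calls in PPE + Lenva against normal aorta fell to 1, Il33 (1.91, adjusted p = 0.0462 by limma), with Il1b at 3.35 (0.0567), Il1rn at 2.92 (0.0533), Casp1 at 1.65 (0.114) and Pycard at 0.50 (0.0705); the clusters called fell from 3992 to 1548 there and from 2610 to 1127 in PPE, and the numbers did not pair the arrays. Nlrp3 in PPE + Lenva against PPE was 0.16 and turned to -0.06 with the deposited averages, which weigh extreme arrays less; neither was called. No other direction of the 10 genes turned under the alternatives run. Another cluster of the same symbol was planned as an alternative, but each gene had 1 cluster, so no value could be given. Signals near the low end of the scale, as for Il1a, Il18, Nlrp3, Pycard and Il6, limit what can be seen of small differences.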
